A study of Mus musculus with 12 samples.

Results

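The genes described here are 8 that act in fat cell formation and lipid storage: the transcription factors Cebpb, Cebpd, Cebpa and Pparg, the lipid droplet coat genes Plin2, Plin3 and Plin4, and the lipoprotein lipase gene Lpl. They were chosen by name, and all 8 were found among the 12590 genes listed for both genotypes (13768 in either table). The study sequenced RNA from C2C12 cells, an established mouse myoblast line. The wild-type cells are labelled wildtype and the knockout cells Ddx27-/-, and from each genotype total cellular RNA and RNA from purified polysomes, transcripts carrying several ribosomes, were taken. There are 3 libraries of total and 3 of polysomal RNA for the wild type, and 2 of total and 3 of polysomal RNA for the knockout among the columns used here. The samples include 3 of knockout total RNA, but only 2 have values among these columns. The labels state no drug, no differentiation medium, no passage and no clone for either genotype. Nothing in them ties the libraries of a group to separate cultures, and p-values then measure only the spread between these libraries, which may be technical.

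In fat cell formation, C/EBPβ and C/EBPδ (Cebpb, Cebpd) act early and switch on C/EBPα (Cebpa) and the nuclear receptor PPARγ (Pparg), which then maintain each other and drive the genes of lipid uptake and storage. The Cebpa and Cebpb mRNAs are known for a short upstream open reading frame that governs which protein isoform is translated. Perilipins coat the lipid droplet: Plin2 is the common coat protein of cells that are not adipocytes, Plin3 moves between cytosol and small droplets, and Plin4 is abundant in white fat and also made in muscle. Lipoprotein lipase releases fatty acids from circulating triacylglycerol and is made in both muscle and fat.

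Start-site windows from RefSeq (GRCm38.p6) were held for 6 of the 8 genes, not for Cebpd or Lpl. The windows below are those of 2 C/EBP factors, Cebpb and Cebpa, and 2 perilipins, Plin3 and Plin4. Each is read on its gene's own strand, outside the annotated gene. Capitals mark exact matches on either strand to 6 short motifs. GGGCGG is the core of the box bound by Sp1-like factors, called the GC box below. TGACG is taken for the cyclic AMP response half-site, and TTGCG for the half-site of C/EBP factors. TATAAA stands for the classical TATA box. The letters CCAAT were searched under their own name, and the letters AGGTCA for the nuclear receptor half-site.
Cebpb (chr2:167688665-167688914, plus strand): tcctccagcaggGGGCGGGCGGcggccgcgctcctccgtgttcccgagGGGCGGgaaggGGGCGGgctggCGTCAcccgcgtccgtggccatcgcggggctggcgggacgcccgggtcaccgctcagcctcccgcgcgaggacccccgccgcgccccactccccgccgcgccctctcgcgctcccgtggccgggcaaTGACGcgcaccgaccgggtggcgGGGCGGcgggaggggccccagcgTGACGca
Cebpa (chr7:35119043-35119292, plus strand): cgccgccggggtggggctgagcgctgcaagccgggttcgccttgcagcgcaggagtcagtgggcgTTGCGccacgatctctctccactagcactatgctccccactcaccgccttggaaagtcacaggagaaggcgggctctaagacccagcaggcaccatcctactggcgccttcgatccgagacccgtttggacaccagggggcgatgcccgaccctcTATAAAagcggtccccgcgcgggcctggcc
Plin3 (chr17:56290512-56290761, minus strand): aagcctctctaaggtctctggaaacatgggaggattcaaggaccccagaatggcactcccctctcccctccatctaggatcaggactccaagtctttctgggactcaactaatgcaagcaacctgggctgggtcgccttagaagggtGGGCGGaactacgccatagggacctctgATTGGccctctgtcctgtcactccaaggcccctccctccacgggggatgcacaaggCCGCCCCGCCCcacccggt
Plin4 (chr17:56109949-56110032, minus strand): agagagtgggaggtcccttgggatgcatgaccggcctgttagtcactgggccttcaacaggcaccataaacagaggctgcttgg

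The Cebpb window held 5 GC boxes, 2 of which share bases, and 3 cyclic AMP response half-sites, 180, 53 and 7 bases before the start. The Cebpa window held a TATA box 30 bases and a C/EBP half-site 185 bases before the start. The Plin3 window held 3 GC boxes, 2 of them sharing bases, and 1 CCAAT box 75 bases before the start. The Plin4 stretch printed held none of the 6 motifs; the rest of its 250-base window lies inside the annotated gene, is not printed, and has 1 CCAAT box 18 bases before the start. Of 32851 windows of 250 bases in the RefSeq table, 32.7% held a GC box, 17.8% the cyclic AMP half-site, 14.5% the C/EBP half-site, 12.4% a TATA box, 33.8% a CCAAT box and 14% the nuclear receptor half-site. A match describes letters in a window and is not a measured site.

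Levels below are normalised read counts, as the authors scaled them within each genotype's table, and libraries held 13683674 to 27347878 reads in listed genes. For counting error only, a value of 0 would allow up to 3 reads, between 0.0989 and 0.257 normalised read counts by library. Ddx27, the targeted gene, stood at 139 to 215 in the wild-type and 31.3 to 52.6 in the knockout libraries, so its RNA was lower but present. None of 10 adipocyte markers (Adipoq, Fabp4, Plin1, Cfd, Lep, Retn, Cidec, Cidea, Adrb3 and Ucp1) is listed in either table. Of 8 myoblast markers, all 8 have a place in the wild-type table and 7 in that of the knockout, where Pax7 is not listed. Their summed level was 3682 to 5019 in wild-type total, 1224 to 1298 in wild-type polysomal, 1622 to 1770 in knockout total and 826 to 1092 in knockout polysomal RNA. Myod1, the myoblast determination factor, stood at 69.7 to 177 in the wild-type libraries and 0 to 1.13 in the knockout libraries, so this defining marker of the labelled cell type is at or near 0 in the knockout. Of 8 markers of fibro-adipogenic progenitors, the fat-forming mesenchymal cells of muscle, 6 were listed in wild-type and 5 in knockout cells. Their sums were 516 to 570, 210 to 275, 313 to 336 and 343 to 380 in the same order of groups. Reads of 4 gene models that collect ribosomal RNA made up 0.0535 to 0.135% of total RNA libraries, 5.91, 14.5 and 0.674% of wild-type polysomal replicates 1 to 3, and 23.1, 32.7 and 0.385% of knockout polysomal columns 1 to 3.

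The 8 genes spanned a wide range of levels. Per kilobase of the length in the authors' tables, Plin2 led in wild-type total RNA at 96.8 ± 12.8 normalised read counts per kb (SD, n = 3), followed by Plin3 at 63.9 ± 3.65, Cebpb at 46.6 ± 3.77 and Pparg at 11.1 ± 1.86. Cebpa at 7.0 ± 1.42, Lpl at 5.32 ± 1.28, Cebpd at 4.20 ± 0.678 and Plin4 at 2.71 ± 0.167 per kb came after them. In that order the libraries of Plin2, Plin3, Cebpb and Pparg did not overlap with their neighbours, those of Cebpa and Lpl overlapped, as did those of Lpl and Cebpd, and those of Plin4 lay below Cebpd. Cebpb came first per kb in each of the other 3 groups, although its libraries there overlapped with those of Plin2, except in knockout total RNA. Plin4 had the lowest mean per kb in all 4 groups.

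**Figure D1:**
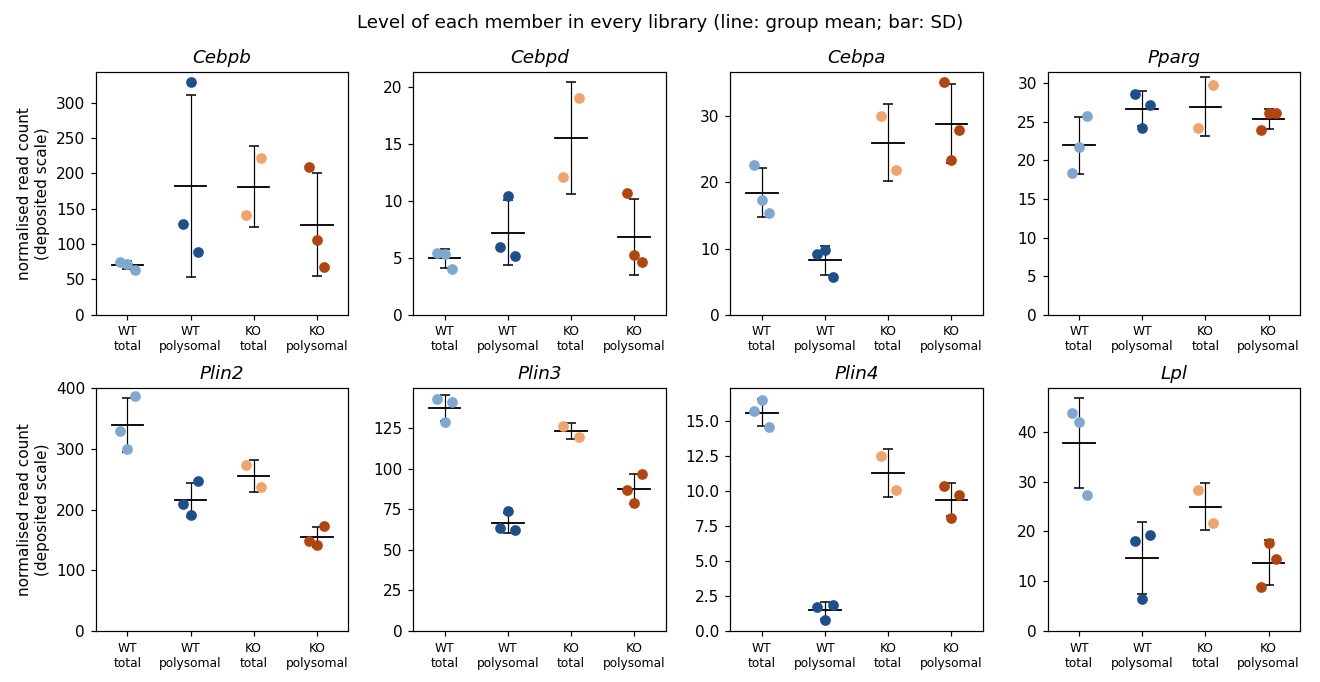
Normalised read count of each gene (y axis, deposited scale, each panel with its own range from 0) in every library of the 4 groups (x axis), with the group mean as a line and the SD as a bar. Plin4 stands at 0.806 to 1.87 in wild-type polysomal RNA and at 8.04 to 16.5 in every other library; WT is wild type and KO the Ddx27 knockout.

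The main comparison of the design, polysomal against total RNA, asks which transcripts are richer or poorer in polysomes than in the cell. In wild-type cells the 3 perilipin genes, Lpl and Cebpa were poorer in polysomes than in the cell, Plin4 by far the most of the 8, and limma called none of the 8 higher, whereas DESeq2 called Cebpb higher. Of the 8 genes, 5 were called lower (limma, adjusted p under 0.05 over all genes), against a background of 22.7% of 12380 genes called in either direction, 13.8% lower and 8.89% higher. The median log2 fold change was −0.85 over the 8 and −0.02 over all genes tested. Of the cell type markers, 6 of 6 tested for fibro-adipogenic progenitors (Dcn, Pdgfrb, Cd34, Ly6a, Pdgfra and Mfap5, at −3.20 to −0.96) and 5 of 8 for myoblasts (Des, Itga7, Chrna1, Cdh15 and Myod1, at −2.20 to −0.88) were lower in the same comparison, and their part in the values of the 8 was not tested.

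Cebpb, the early factor, stood at 74.8, 71.8 and 63.8 in wild-type total replicates 1 to 3 and at 128, 330 and 89.3 in the polysomal ones. All 3 polysomal libraries were above all 3 total ones, with replicate 2, the library with 14.5% rRNA-like reads, far above the others. The log2 fold change was 1.14 ± 0.44 (SE, limma adjusted p = 0.0965), and without that library it was 0.61 ± 0.16 with an adjusted p of 0.0108. DESeq2 on the recovered reads gave 1.45 with an adjusted p of 0.0139, and edgeR 1.44 with 0.0672. In the authors' deposited table the log2 fold change was 1.38 with an FDR of 0.00566. With a linear trend on gene length removed from each library the limma value was 0.80. Whether the rRNA-like share has a part in it was not tested.

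Cebpd, the partner of Cebpb in the early phase, was scarce, at 5.44, 5.38 and 4.03 in total and 5.93, 10.5 and 5.20 in polysomal RNA. Polysomal replicate 2 was again the highest, and the groups overlapped. The log2 fold change of 0.42 ± 0.28 did not pass the test (limma adjusted p = 0.294), and with the length trend removed it was −0.04. Cebpd shares 322 bases of its RefSeq span with Spidr, and whether reads were counted by strand is not given in the sources used here.

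Cebpa, the late factor of the family, moved the other way. It stood at 22.6, 17.4 and 15.4 in total and at 9.13, 9.75 and 5.71 in polysomal RNA, where every library was below every total library. The log2 fold change was −1.09 ± 0.26 (limma adjusted p = 0.0240). Pparg, the receptor that works with Cebpa, was nearly level, at 18.4, 21.7 and 25.7 in total and 28.6, 24.2 and 27.2 in polysomal RNA. Its groups overlapped, with a log2 fold change of 0.28 ± 0.20 (95% interval −0.18 to 0.74, adjusted p = 0.317).

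The perilipins fell to very different degrees. Plin2, the common droplet coat gene, stood at 329, 300 and 388 in total and at 209, 191 and 247 in polysomal RNA, a log2 fold change of −0.65 ± 0.18 (limma adjusted p = 0.0414). Plin3, the exchangeable coat gene, stood at 143, 128 and 141 against 63.6, 73.8 and 62.1, a change of −1.04 ± 0.16 (adjusted p = 0.00637). Plin4 stood at 15.7, 16.5 and 14.6 in total RNA and at 1.74, 0.806 and 1.87 in polysomal RNA, which rest on 42, 10 and 44 reads.

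For each perilipin the polysomal libraries lay below all total libraries. The share of all genes whose libraries separate in this way was not counted, in this or any other comparison. The mean of Plin4 was 10.6-fold lower in polysomal than in total RNA, against 2.07-fold for Plin3 and 1.57-fold for Plin2. Its log2 fold change on the log2(value + 1) scale, which understates the change of a gene this low, was −2.77 ± 0.24 (limma adjusted p = 0.00116), the 70th by size of 12380 genes. In the authors' deposited table it was −3.35, and that of Plin2 was −0.65 with an FDR of 0.0644. Plin4 shares 19 bases of its span with the neighbouring gene Hdgfl2 and Plin2 shares 5312 bases with Gm12551.

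Lpl stood at 43.7, 42.0 and 27.3 in wild-type total and at 18.1, 6.36 and 19.3 in polysomal RNA. Every polysomal library was below every total library, with polysomal replicate 2 the lowest, and the log2 fold change was −1.42 ± 0.41 (limma adjusted p = 0.0464). Without that library it was −0.94, adjusted p = 0.00366. The calls of Plin2, Lpl and Cebpa were lost when any of the 3 total libraries or polysomal replicate 1 was left out (adjusted p of 0.0508 to 0.170), and that of Plin3 without total replicate 1 or 3 (0.0572 and 0.0545). The call of Plin4 held without any 1 of the 6 libraries (adjusted p at most 0.0150).

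**Figure D2:**
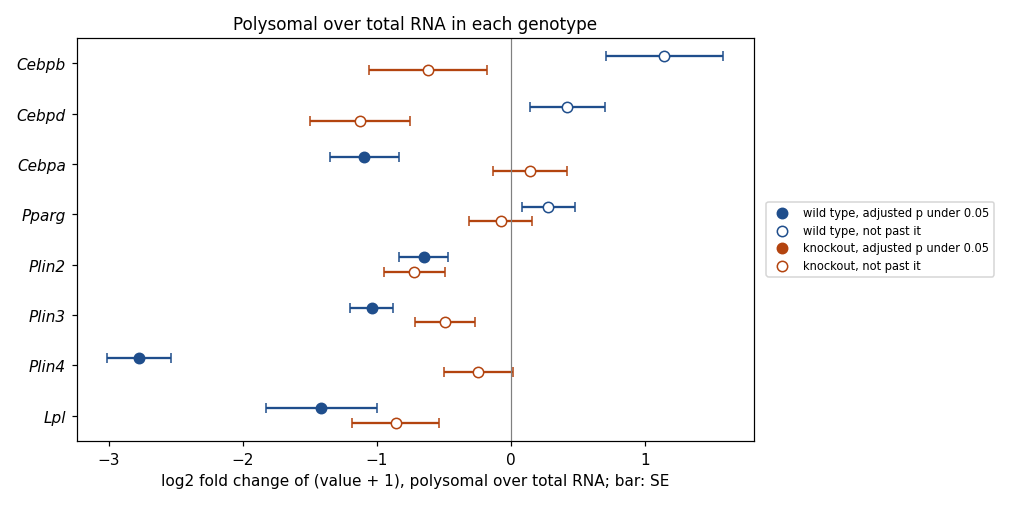
Polysomal over total RNA as a log2 fold change (x axis, log2(value + 1) scale, bars are SE) for each gene (y axis) in wild-type and knockout cells; filled points passed an adjusted p of 0.05 in limma. Plin4 stands at −2.77 in the wild type and −0.24 in the knockout.

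In the knockout, none of the 8 genes was called in polysomal against total RNA. The limma fit called 0 of 8 against a background of 2.76% of 12070 genes (0.911% higher and 1.85% lower). Its unadjusted p was under 0.05 for 3 of the 8 (Cebpd, Plin2 and Lpl), beside 2745 of the 12070 genes. On the recovered reads edgeR called 0 and DESeq2 called 1, Plin2. The median log2 fold change was −0.56 over the 8 and 0.04 over all genes. Of the cell type markers, 2 of 6 tested for myoblasts and 1 of 5 for fibro-adipogenic progenitors were called lower, and 0 higher. Their part in the values of the 8 was not tested here either. With 2 total libraries, the fit here had fewer libraries than in the wild type, so a call in the wild type and none here is no difference by itself.

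Cebpb stood at 140 and 222 in the 2 knockout total columns and at 209, 106 and 67.5 in the 3 polysomal columns. The groups overlapped (log2 fold change −0.62 ± 0.44, limma adjusted p = 0.433). Cebpd stood at 12.1 and 19.1 in total and at 10.7, 5.22 and 4.65 in polysomal RNA, all 3 below both total columns (−1.13 ± 0.37, adjusted p = 0.131). For both early factors polysomal column 1, with 23.1% rRNA-like reads, was the highest of the 3. Column 3, with 0.385%, was the lowest, and column 2, with the largest rRNA-like share at 32.7%, stood between them. In wild-type polysomal RNA both genes were lowest in replicate 3 (0.674% rRNA-like reads), then replicate 1 (5.91%), and highest in replicate 2 (14.5%). Without knockout polysomal column 1 both knockout changes were larger, −1.05 (limma adjusted p = 0.0349) for Cebpb and −1.45 (adjusted p = 0.0107) for Cebpd. Whether the rRNA-like share has a part in these changes was not tested.

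Cebpa stood at 30.1 and 21.9 in knockout total and at 35.2, 23.4 and 27.9 in polysomal RNA, with overlapping groups and a log2 fold change of 0.14 ± 0.27 (limma adjusted p = 0.800). Pparg stood at 24.2 and 29.7 against 23.9, 26.2 and 26.1 (−0.08 ± 0.24, adjusted p = 0.877). Neither factor was poorer in polysomes by more than the spread between libraries, and the 95% intervals of −0.48 to 0.77 for Cebpa and −0.61 to 0.46 for Pparg leave room for moderate changes in either direction.

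Plin2 stood at 274 and 237 in knockout total and at 149, 142 and 173 in polysomal RNA (−0.72 ± 0.23, limma adjusted p = 0.119). Plin3 stood at 127 and 120 against 86.8, 78.6 and 96.9 (−0.49 ± 0.22, adjusted p = 0.227). Plin4 stood at 12.5 and 10.1 against 10.3, 8.04 and 9.73 (−0.24 ± 0.26, 95% interval −0.83 to 0.35, adjusted p = 0.616). Polysomal libraries lay below both total columns for Plin2 and Plin3, whereas those of Plin4 overlapped with them. How many of all genes separate like Plin2 and Plin3 was not counted. Lpl stood at 28.4 and 21.6 in total and at 8.85, 17.7 and 14.5 in polysomal RNA, all lower, without passing the test (−0.86 ± 0.32, adjusted p = 0.165).

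The difference between the genotypes was tested directly, as the polysomal over total log2 fold change in the knockout minus that in the wild type. Plin4 alone among the 8 passed: its difference was 2.53 ± 0.33 (limma, 95% interval 1.80 to 3.26, adjusted p = 0.0249), the 23rd by size of 12474 genes. The 1 call among 8 stands against a background of 0.265% of genes called, with 0.224% higher and 0.0401% lower in the knockout. The median difference was 0.24 over the 8 and 0.09 over all genes. Unadjusted limma p was under 0.05 for 5 of the 8, beside 2604 of all 12474 genes. The call was lost when any 1 of 7 of the 11 libraries was left out, with adjusted p of 0.0509 to 0.205, while the difference itself stayed between 2.32 and 2.67. Without knockout polysomal columns 1 and 2, richest in rRNA-like reads, it was 2.58 with an adjusted p of 0.152; that fit keeps 1 knockout polysomal library and takes its spread from the other groups. Of the fibro-adipogenic progenitor markers, 5 of 5 tested were at an unadjusted p under 0.05 for the difference, in the same direction as Plin4 (Ly6a at 1.85 and Pdgfra at 1.64, then Mfap5, Pdgfrb and Dcn, median 1.08 against 0.09 over all genes), and 0 were called (limma adjusted p of 0.0690 to 0.237). Of 7 tested myoblast markers, 1 was at an unadjusted limma p under 0.05, 0 were called and the median was 0.45. The part of either marker set in the value of Plin4 was not tested.

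As a percentage of the mean total RNA level of its genotype, Plin4 stood at 11.2, 5.17 and 12% in the wild-type polysomal libraries and at 91.7, 71.3 and 86.2% in the knockout ones. Plin3 stood at 46.3, 53.7 and 45.2% against 70.5, 63.9 and 78.8%, and Plin2 at 61.6, 56.4 and 72.7% against 58.3, 55.5 and 67.7%. The percentages of the genotypes were apart for Plin4 and Plin3 and overlapped for Plin2. The tested difference was 0.55 ± 0.24 for Plin3 (limma adjusted p = 0.221) and −0.07 ± 0.26 for Plin2 (95% interval −0.65 to 0.51, adjusted p = 0.886).

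**Figure D3:**
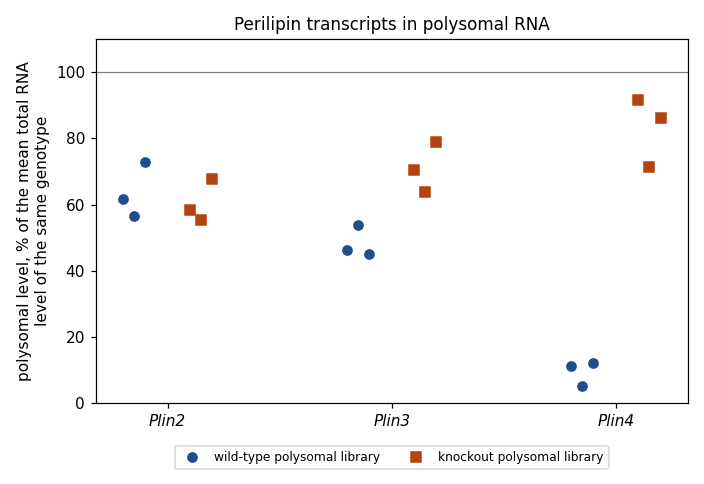
Level of Plin2, Plin3 and Plin4 in each polysomal library, as a percentage of the mean total RNA level of the same genotype (y axis, 100% marked by a line), for wild-type (circles) and knockout (squares) libraries. Plin4 lies at 5.17 to 12% in the wild type and 71.3 to 91.7% in the knockout, while Plin2 overlaps between genotypes.

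For the transcription factors the direction of the difference varied. Cebpa stood at 1.23 ± 0.38 (limma adjusted p = 0.131, and 0.0476 in DESeq2), with 49.5, 52.9 and 31.0% of the mean total level in wild-type polysomal libraries and 135, 89.9 and 107% in the knockout ones. Cebpb stood at −1.76 ± 0.70 (adjusted p = 0.199) and Cebpd at −1.54 ± 0.49 (adjusted p = 0.136), with percentages of 120, 212 and 105% against 68.6, 33.5 and 29.8% for Cebpd. The percentages of Cebpa were all higher and those of the 2 early factors all lower in the knockout, but none of the 3 passed the test in limma. How many of all genes have percentages apart in this way, as Plin3 and Plin4 also had, was not counted. Pparg stood at −0.36 ± 0.27 (adjusted p = 0.446) and Lpl at 0.56 ± 0.58 (adjusted p = 0.574).

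Knockout and wild type were also compared within each RNA fraction, with all 11 libraries brought to a common scale (median of ratios), since the authors scaled the genotypes separately. In total RNA the early factor Cebpd was higher in the knockout, and in polysomal RNA Cebpa and Plin4 were. In total RNA 1 of the 8 genes was called, against a background of 10.5% of 12474 genes (4.72% higher and 5.78% lower), and the median log2 fold change was 0.19 over the 8 and −0.01 over all genes. In polysomal RNA 2 of the 8 were called, both higher, against 8.31% of genes in either direction (4.81% higher and 3.5% lower), with medians of 0.04 over the 8 and −0.002 over all genes. These comparisons share their libraries with those of polysomal against total RNA. Their fits took 1 estimate of the spread per gene from all 11 libraries. The SE and p-value in 1 fraction therefore also reflect the scatter in the other. Of 5 tested fibro-adipogenic progenitor markers, 2 were higher in knockout polysomal RNA, Ly6a (1.05 ± 0.27) and Mfap5 (0.90 ± 0.23). Of the same 5, 0 were called in total RNA (3 at an unadjusted limma p under 0.05, beside 3664 of all 12474 genes). Of 7 tested myoblast markers, Myod1, Des, Cdh15 and Itga7 were lower in both fractions (−6.39 to −1.03 in total and −6.27 to −0.67 in polysomal RNA), and Myf5 was higher in total RNA (0.98 ± 0.26). The part of these cell type markers in the values of Cebpd, Cebpa and Plin4 was not tested. In these bulk samples, a change in the share of cells with a transcript and a change in its level per cell cannot be told apart.

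On the common scale Cebpd stood at 5.26, 5.20 and 3.93 in wild-type and at 12.8 and 20.1 in knockout total RNA, with both knockout columns above all wild-type libraries. Its log2 fold change was 1.57 ± 0.38 (limma adjusted p = 0.0251), and leaving out knockout column 2 or any wild-type total library gave adjusted p of 0.0645 to 0.300. Cebpb stood at 72.2, 69.4 and 62.2 against 148 and 234, also without overlap, but did not pass in limma (1.45 ± 0.55, adjusted p = 0.107, and 0.0439 in DESeq2). The spread in that fit includes its polysomal libraries, which ran from 68.1 to 338. In polysomal RNA the groups overlapped for both genes, at −0.02 ± 0.34 for Cebpd and −0.36 ± 0.49 for Cebpb (adjusted p = 0.984 and 0.708).

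Cebpa in polysomal RNA stood at 8.58, 10.0 and 5.40 in the wild type and at 36.3, 24.3 and 28.1 in the knockout on the common scale. All knockout libraries were above all wild-type ones, a log2 fold change of 1.78 ± 0.26 (limma adjusted p = 0.00171). In total RNA it stood at 0.59 ± 0.29 (adjusted p = 0.196). Without knockout polysomal columns 1 and 2 the polysomal change of Cebpa was 1.73 with an adjusted p of 0.0524, again with 1 knockout polysomal library whose spread is taken from the other groups. Pparg stood at 0.41 ± 0.20 in total (adjusted p = 0.198) and 0.01 ± 0.18 in polysomal RNA (adjusted p = 0.977).

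Plin4 in polysomal RNA stood at 1.64, 0.826 and 1.77 in the wild type and at 10.7, 8.35 and 9.82 in the knockout on the common scale. The knockout mean was 6.80 times the wild-type mean, and the log2 fold change was 2.16 ± 0.21 (limma adjusted p = 0.000144), between 1.97 and 2.26 with any 1 of these 6 libraries left out. In total RNA Plin4 stood at 15.2, 15.9 and 14.2 against 13.2 and 10.6, both knockout columns lower, without passing the test (−0.32 ± 0.24, 95% interval −0.85 to 0.20, adjusted p = 0.385). Plin3 was higher in all knockout polysomal libraries (0.47 ± 0.16, limma adjusted p = 0.106, but 0.0293 in DESeq2 and 0.0379 in limma with the length trend removed) and level in total RNA (−0.04 ± 0.18). Plin2 was lower in every knockout polysomal library. In total RNA it was nearly tied, at 289.2 in knockout column 1 against 289.7 in wild-type replicate 2. Its changes were −0.28 ± 0.19 in total and −0.39 ± 0.17 in polysomal RNA, and it passed in neither (limma adjusted p = 0.346 and 0.193). Lpl stood at −0.44 ± 0.41 and 0.08 ± 0.37 (adjusted p = 0.494 and 0.931).

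**Figure D4:**
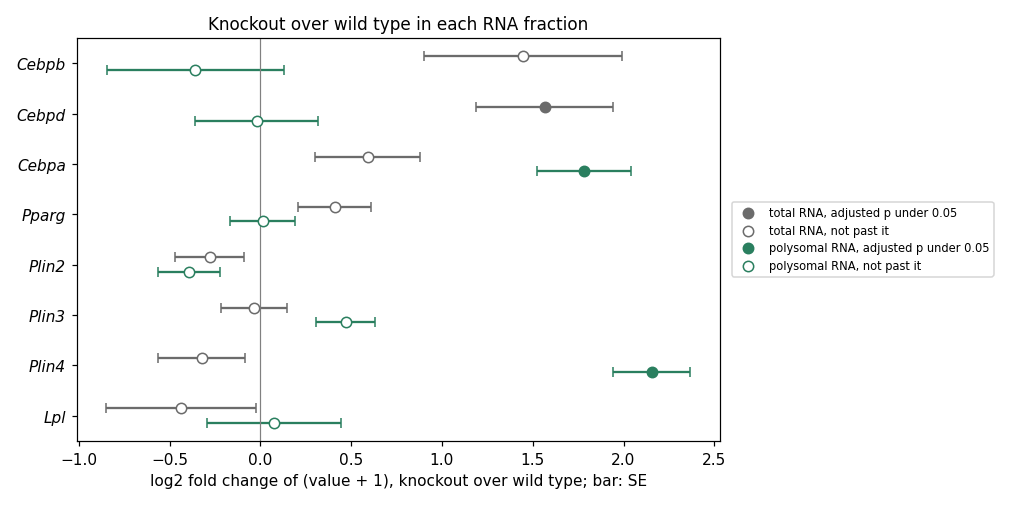
Log2 fold change of knockout over wild type (x axis, log2(value + 1) on the common scale, bars are SE) for each gene (y axis) in total and in polysomal RNA; filled points passed an adjusted p of 0.05 in limma. Cebpd passes in total RNA at 1.57, and Cebpa at 1.78 and Plin4 at 2.16 pass in polysomal RNA.

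Shares within each family, per kilobase, need no scaling between libraries, but each share also depends on the other genes of its family. In total RNA, for example, the Cebpa share was lower in the knockout. Its mean level on the common scale was higher there, at 27.4 against 17.9 in the wild type. Plin4 made up 1.42 to 1.93% of the summed Plin2, Plin3 and Plin4 level in wild-type total, 0.157 to 0.339% in wild-type polysomal, 1.40 to 1.56% in knockout total and 1.76 to 2.13% in knockout polysomal RNA. Plin3 made up 36.6 to 40.7%, 29.0 to 38.5%, 42.2 to 44.4% and 46.6 to 47.6% in the same order. Among the C/EBP genes, Cebpb made up 75.5 to 94.6% in every library. Cebpa made up 11.2 to 13.6% in wild-type total, 1.60 to 3.70% in wild-type polysomal, 4.83 to 9.92% in knockout total and 8.28 to 17.8% in knockout polysomal RNA. The wild-type polysomal libraries thus held the lowest shares of both Plin4 and Cebpa, with no overlap with any other group.

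Across the 11 libraries, which share their groups and depth and so are only described, the genes fell into patterns on log2(value + 1) on the common scale. Cebpb and Cebpd varied together (Pearson r = 0.85), as did Plin3 and Plin4 (r = 0.87) and Cebpa and Plin4 (r = 0.77), while Cebpb and Lpl went opposite ways (r = −0.65). Plin4 and Plin3 both lie on chromosome 17, with 169 kb and 10 annotated genes between them, among them Plin5, which is not listed in either table. Pparg and Cebpa, known as partners, had an r of −0.03.

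Among 12473 other genes, those with the pattern most like Plin4 were Snx33, Chst15 and Trp53inp2 (r = 0.98, 0.96 and 0.96). Chst15 was lower in wild-type polysomal RNA (−1.81 ± 0.23, limma adjusted p = 0.00368) and stood at −0.19 ± 0.26 in the knockout (adjusted p = 0.704), and the difference was 1.61 ± 0.35 (adjusted p = 0.0690). For Cebpa they were Kremen1, Hdac4 (1 of 2 gene IDs with that name) and Arhgef10l (0.98, 0.98 and 0.97), for Cebpb Avpi1, Tmem208 and 2310036O22Rik (0.98 each), and for Cebpd Fhl2, B3gat3 and Anks3 (0.98 each). For Plin3 they were Pltp, Wdr81 and Myom2 (0.99, 0.98 and 0.98), for Plin2 Ehd1, Ilk and Acta1 (0.97 each), and for Lpl Acsl4, Sun1 and Ranbp2 (0.98 each). Pparg had the least close matches, Pgbd1, 2700089E24Rik and Tmem69 (0.87, 0.86 and 0.84).

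The wider pathway was read from lists of genes that are known to act with the 8. In wild-type cells, of 10 tested fatty acid synthesis genes 6 were lower in polysomal RNA and 0 higher (median −0.90), among them the enzymes that make and carboxylate acetyl-CoA, Acly (−1.57 ± 0.24, limma adjusted p = 0.00620) and Acaca (−1.05 ± 0.18, adjusted p = 0.00821), and fatty acid synthase, Fasn (−1.28 ± 0.24, adjusted p = 0.0112). Of 16 triacylglycerol synthesis genes 5 were lower and 0 higher (median −0.18): Lpin1, Gpam, Acsl4, Acsl1 and Agpat4. Of 18 other droplet coat and lipolysis genes 1 was higher, Hilpda (1.08 ± 0.25), and 2 were lower, Acsl3 (−1.20 ± 0.33) and Osbpl2 (−0.64 ± 0.19), with a median of −0.01. The lists are described beside the same 22.7% of all genes called and the median of −0.02.

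Of 15 genes of lipoprotein lipase maturation, its control and fatty acid uptake, 3 were lower in wild-type polysomal RNA and 1 was higher. The lower ones included Lrp1 (−2.69 ± 0.16, limma adjusted p = 0.000808), a lipoprotein receptor, and Sel1l (−1.43 ± 0.40), which serves the folding of the lipase, and the higher one was the fatty acid binding protein gene Fabp5 (1.35 ± 0.33). Of 19 other adipogenic regulators 4 were lower (Stat5a, Stat5b, Ppargc1b and Ncoa1, at −0.83 to −0.57) and 1 was higher, Egr2 (1.03 ± 0.27). Of 16 factors known to restrain adipogenesis 4 were higher, Ddit3 (2.29 ± 0.46), Hes1 (2.08 ± 0.39), Twist2 (1.37 ± 0.37) and Gata2 (0.83 ± 0.17), and 2 were lower, Trib2 (−1.21 ± 0.24) and Ctnnb1 (−1.05 ± 0.26). None of the 3 tested family relatives of Cebpa and Pparg was called (1 at an unadjusted limma p under 0.05, beside 4859 of all 12380 genes).

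In the knockout's polysomal against total RNA, the same lists held 3 calls in all: Acly (−1.29 ± 0.26, limma adjusted p = 0.0391), Lrp1 (−1.92 ± 0.29, adjusted p = 0.0192) and Hes1 (1.34 ± 0.28, adjusted p = 0.0470), beside 2.76% of all genes called. None of their genes passed the test of the difference between genotypes. Unadjusted limma p was under 0.05 for 3 of 10 fatty acid synthesis, 4 of 17 triacylglycerol synthesis and 7 of 19 adipogenic regulator genes. The same held for 2604 of all 12474 genes tested. In total RNA of the knockout, beside 10.5% of all genes called, 3 of 19 regulators were lower than in the wild type, Klf4 (−1.73 ± 0.28), Ppargc1b (−1.13 ± 0.23) and Ncoa3 (−0.91 ± 0.26). Of 16 restraining factors 3 were lower, including Trib2 (−1.13 ± 0.28) and Gata3 (−0.93 ± 0.23), and of 10 fatty acid synthesis genes 2 were, Srebf2 (−0.89 ± 0.22) and Acaca (−0.79 ± 0.22). The phosphatidate phosphatase gene Lpin3 was lower in the knockout in both fractions (−2.72 ± 0.23 and −1.73 ± 0.21), and the fatty acid transporter gene Slc27a3 was higher in both (0.89 ± 0.24 and 1.04 ± 0.22). In polysomal RNA, beside 8.31% of all genes called, Lpin1, a phosphatase of the same family known to take part in adipogenesis, was higher (1.54 ± 0.27, adjusted p = 0.00532) and Dgat2, an enzyme of the last step of triacylglycerol synthesis, was lower (−0.73 ± 0.19, adjusted p = 0.0371).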

How the data were processed

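STAR, HTSeq and edgeR with the mouse build mm10 are named in the authors' processing, per the submitters' processing notes; versions and settings are not given in the sources used here. The authors deposited 1 table per genotype with a normalised read count (a signal) per gene and library. Whole reads could be recovered: within a library, values are multiples of what 1 read is worth, for 100% of values (tolerance 0.001 reads). Column sums of 847338 to 1215073 are not those of plain CPM, so the unit was taken as a signal and the planned test was kept. The authors' tables also hold a log2 fold change, a p-value, an FDR and the gene length. Knockout columns match the samples by group only.

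Tests used limma 3.58.1 (R 4.3.3) with a mean-variance trend on log2(value + 1), over genes reaching a value of 1 in 3 or more of the libraries in the fit. P-values were adjusted by Benjamini-Hochberg over all genes, with a threshold of 0.05, and all 8 genes passed the filter in every comparison. On the recovered reads, edgeR 4.0.16 called 2874 genes in wild-type and 303 in knockout polysomal against total RNA, and DESeq2 1.42.0 called 4369 and 1288. The code was tested on simulated data. Further alternatives were a pseudocount of 0.5, no filter, removal of a trend on gene length, other scaling, a replicate block and leaving out libraries.

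The 8 genes and the lists were chosen with earlier results of these data known. Named are all 8, up to 3 genes per list and comparison with the smallest adjusted p past the threshold, those a count of 5 or fewer refers to, and for each of the 8 the 3 genes of highest correlation. Some genes counted in these lists are not reported here. Coordinates and sequences are RefSeq's for GRCm38.p6, the mm10 build. Depth ran from 13683674 to 27347878 reads.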

Additional observations from a re-analysis of the deposited data

Results flagged for a closer look

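The polysomal over total RNA log2 fold change of Plin4 differed between the genotypes by 2.53 (knockout minus wild type, on the log2(value + 1) scale), by a direct test of that difference over all 11 libraries (limma adjusted p = 0.0249). It was −2.77 in the wild type and −0.24 in the knockout. The call of the difference was lost without some single libraries, such as knockout polysomal column 3 (2.50, limma adjusted p = 0.114). In wild-type polysomal libraries Plin4 rests on 10 to 44 reads.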

How the results depend on the processing

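Of 536 alternative values of the 8 genes' fold changes, 469 kept direction and side of the threshold, 29 lost a call, 14 gained one and 24 changed sign, none of the last from a called value; where no construction shows it, the cause was not tested. Genes called in wild-type, knockout, difference, total and polysomal comparisons numbered 2806, 333, 33, 1310 and 1036, and with DESeq2 4369, 1288, 951, 2462 and 1795; its members called were 6 in the wild type (gaining Cebpb), 1 in the knockout (Plin2), 2 for the difference (gaining Cebpa), 2 in total RNA (gaining Cebpb) and 3 in polysomal RNA (gaining Plin3). With the length trend removed, 1460 genes and 3 of the 8 (Cebpd, Plin2 and Lpl) were called in the knockout and 126 genes for the difference. Leaving out 1 library at a time, which tests fewer samples and where 1 knockout total library remains assumes that it varies like the other groups, the calls ran from 461 to 5777 genes and 1 to 6 members (wild type, highest without polysomal replicate 2, lowest without total replicate 3), 5 to 1622 and 0 to 2 (knockout, highest without polysomal column 1, lowest without total column 1), 0 to 355 and 0 to 1 (difference, highest without wild-type polysomal replicate 2), 260 to 1360 and 0 to 1 (total, lowest without knockout column 2) and 420 to 1652 and 2 to 3 (polysomal, lowest without knockout column 3, highest without wild-type replicate 2). Without knockout polysomal columns 1 and 2, which leaves 1 such library under the same assumption, calls were 40 genes in the knockout, 0 genes and 0 members for the difference, and 248 genes and 1 member in polysomal RNA; Plin2's difference was 0.10 (from −0.07).

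The replicate block, for the wild type only, called 1946 genes and 3 of the 8, without Plin2 (adjusted p = 0.0677) and Lpl (0.0617). Same-numbered libraries had deviations correlated at 0.21, −0.22 and −0.07, and only total replicate 1 correlated best with its own number. These values cannot decide whether same-numbered libraries came from the same culture, since other differences between polysomal libraries, such as the rRNA-like share, may enter them. The labels give such libraries only a shared number. No paired analysis was run for the knockout because the numbers of its columns could not be matched to those of the samples.

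No value that changed sign was past the threshold before or after. Length trend removed, Cebpd was −0.036 (from 0.42) in wild-type polysomal over total RNA, and in polysomal RNA of knockout over wild type Cebpd was 0.10 and Lpl −0.012. In that comparison Cebpd was 0.023 with edgeR and 0.0034 with DESeq2, and with the deposited scaling Pparg was −0.065 and Lpl −0.0017. Leaving out 1 library, that comparison ran from −0.80 to 0.22 for Cebpb (−0.36 with all libraries), −0.35 to 0.28 for Cebpd, −0.017 to 0.048 for Pparg and −0.36 to 0.33 for Lpl. Cebpa (−0.079 to 0.36) and Pparg (−0.22 to 0.064) in the knockout, Plin3 in total RNA (−0.086 to 0.0011) and Plin2's difference (−0.18 to 0.033) also crossed 0. The deposited scaling moved the median of all genes to −0.12 in total RNA of knockout over wild type and the calls to 430 higher and 1023 lower (589 and 721 on the common scale), and in polysomal RNA to 502 and 605 (600 and 436). Depth limits Plin4 most, with 10 to 44 reads in wild-type polysomal libraries.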
